A study of Mus musculus with 4 samples.

Results

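The genes described here encode the nuclear-encoded subunits of the mitochondrial respiratory chain, that is complexes I to V of oxidative phosphorylation and cytochrome c. They were chosen by symbol alone from the platform annotation: symbols that start with Ndufa, Ndufb, Ndufc, Ndufs or Ndufv and a digit, with Uqcr, with Cox4 to Cox8 or with Atp5, plus the Sdh genes, Cyc1 and Cycs. This gave 83 of 19938 genes with a single symbol, measured by 109 probe sets. Each gene is represented by its brightest probe set over the 4 arrays. Complex I had 35 genes, complex II had 4, complex III had 9, complex IV had 17 and complex V had 17, and Cycs stood alone.

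RNA came from fetal hippocampus and forebrain of C57BL/6J mice at embryonic day 18. Dams had been given ethanol into the stomach (2.9 g per kg each day, as a 15% v/v solution) on embryonic days 8 to 12, or phosphate-buffered saline (PBS) by that route. The 4 groups were hippocampus after ethanol, hippocampus after PBS, forebrain after ethanol and forebrain after PBS. Each group had 1 array, so a difference within a tissue has no replicate check and no p-value, and litter or array effects cannot be told apart from treatment. The labels do not state pooling or litters.

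The respiratory chain carries electrons from NADH through complex I, or from succinate through complex II, to complex III, cytochrome c and complex IV, where oxygen is reduced. Complexes I, III and IV pump protons across the inner mitochondrial membrane, and complex V, the ATP synthase, uses the returning protons to make ATP. Most subunits are encoded in the nucleus, a core set in mitochondrial DNA, and neurons depend heavily on the pathway as they mature.

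Values are log2 expression values, and a difference is ethanol minus PBS on that scale unless stated otherwise. Of the 83 genes, 76 had a mean at or above 7.11, the median of all probe set means, and were kept for comparison with all 11013 kept genes. The 7 below it were Cox4i2, Cox6b2, Cox7a1, Cox7b2, Cox8b, Cox8c and Ndufa4l2, all of them alternative isoforms. Probe sets for Cox7c and Ndufb4 carry several symbols and were left out. Many of these genes have processed pseudogenes, so a probe set can also read near-identical copies. Levels of different genes were not read as amounts of RNA, since probe sets differ in response.

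The tissue label was set beside 5 genes listed as hippocampal field markers (Prox1, Zbtb20, Lhx9, Grik4 and Lef1). Of these, Zbtb20 alone read higher in both hippocampus arrays than in both forebrain arrays. It read 10.72 and 10.75 in hippocampus against 10.49 and 10.40 in forebrain. How specific the listed genes are to hippocampus within the forebrain was not tested, so they do not decide on the label. Over kept genes the array medians were 8.57 in hippocampus after ethanol, 8.67 in hippocampus after PBS, 8.66 in forebrain after ethanol and 8.68 in forebrain after PBS. Marker lists of other cells moved between the hippocampus arrays: 5 of 5 striatal projection neuron genes (0.03 to 0.66) and 3 of 3 kept meningeal genes (0.12 to 0.73) were higher after ethanol, while 4 of 4 choroid plexus genes (-0.48 to -0.20) and 3 of 3 genes of dividing cells (-0.19 to -0.14) were lower. All 4 astrocyte genes were higher in hippocampus after ethanol (0.02 to 0.50). In forebrain the 3 kept meningeal genes (-0.24 to -0.11) and the 3 genes of dividing cells (-0.17 to -0.03) were lower after ethanol, and the astrocyte genes ran from -0.02 to 0.18. There the striatal differences ran from -0.09 to 0.07 and those of the choroid plexus from -0.02 to 0.11. The 6 neuronal genes differed by -0.09 to 0.22 in hippocampus and -0.06 to 0.14 in forebrain. The part of cell makeup in the differences below was not tested. In such tissue RNA, fewer cells of a type and less RNA per cell cannot be told apart.

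The first comparison asked whether maternal ethanol altered respiratory chain expression in the fetal hippocampus. A 1.5-fold difference in either direction was seen for 0 of 76 genes, beside 0.917% of all kept genes. At a smaller size, with the higher array at least 25% above the lower on the linear scale, 0 were higher after ethanol, where 3.17% of all kept genes were, and 2 were lower, Ndufa5 and Cox8a, where 5.95% of all kept genes were. In hippocampus 29 genes read above 0 (30.7% of all kept genes did) and 47 below 0 (69.3% of all). The median difference was -0.05, with -0.08 over all kept genes. That sign rested on the arrays' scaling, since it was 0.05 when array medians were set equal and 0.01 after quantile normalization. The subunits spread less than all kept genes, with an SD over genes of 0.142 beside 0.187. Their probe sets were also brighter, with array medians of 9.54 to 9.65 beside 8.57 to 8.68 over all kept genes. SDs and shares set beside all kept genes, here and below, were not matched for signal level.

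In forebrain the same 76 genes lay closer to 0. For 0 of them was the higher array 25% above the lower (0.527% of all kept genes), and the range was -0.17 to 0.17. In this tissue 43 genes read above 0 (46.1% of all kept genes did), and 33 below 0 (53.8% of all). The median was 0.01, beside -0.01 over all kept genes, and the SD over genes was 0.077 beside 0.094.

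**Figure D1:**
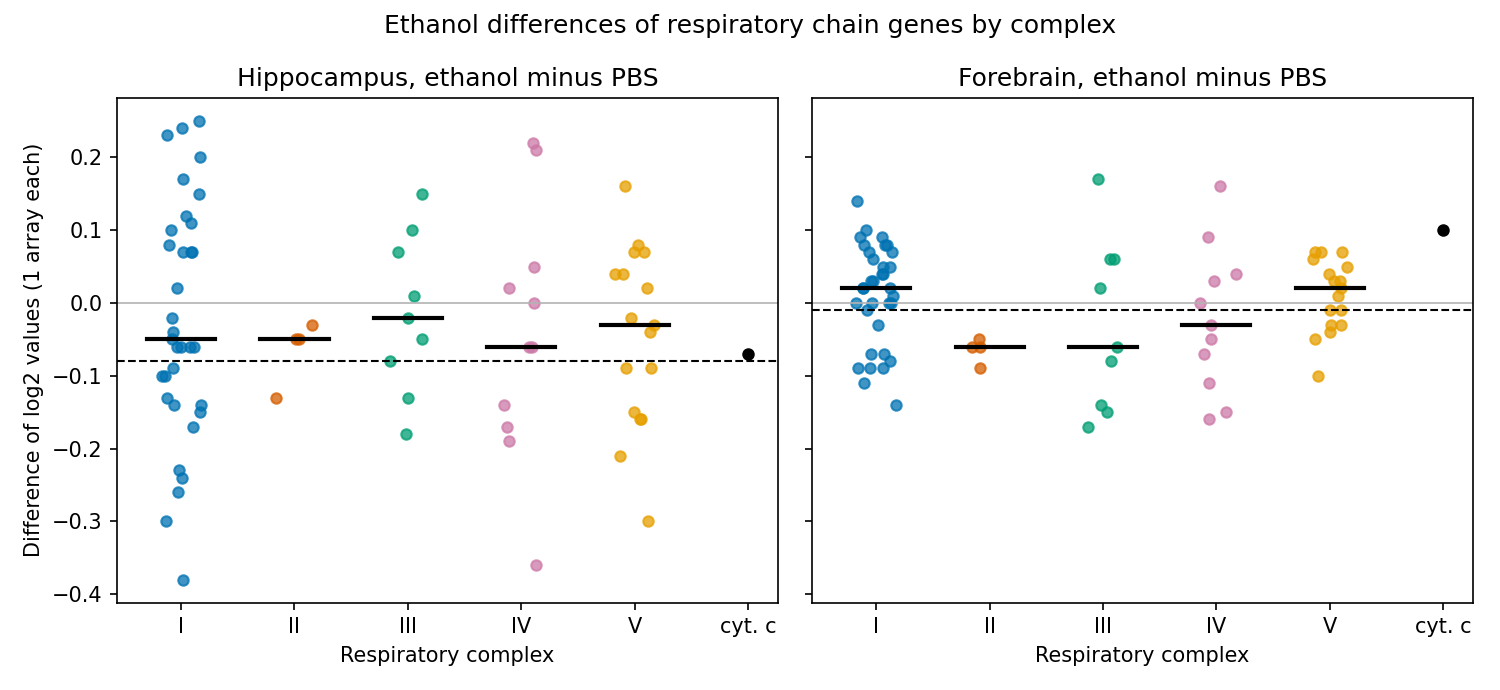
Ethanol differences of the 76 kept respiratory chain genes by complex, in hippocampus (left) and forebrain (right). Each point is 1 gene, the y axis is the log2 value of the ethanol array minus that of the PBS array, black bars are medians of a complex, the dashed line is the median of all kept genes and the grey line is 0; the hippocampus points run from -0.38 to 0.25 and the forebrain points from -0.17 to 0.17, and the complexes' hippocampus medians lie below 0 here but above 0 with arrays centred.

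The widest hippocampus differences, in both directions, were found in complexes I and IV. Ndufa5, an accessory subunit of the matrix arm of complex I, read 8.60 after ethanol and 8.98 after PBS in hippocampus, and 8.93 after ethanol and 9.03 after PBS in forebrain. Cox8a, the ubiquitous isoform of the smallest type of complex IV subunit, read 9.14 after ethanol and 9.50 after PBS in hippocampus, and 9.68 after ethanol and 9.64 after PBS in forebrain. For both, the hippocampus ethanol array was the lowest of the 4, and the linear hippocampus difference was -23.1% for Ndufa5 and -22.3% for Cox8a. On the other side, Ndufa12, another accessory subunit of complex I, read 8.86 after ethanol and 8.61 after PBS in hippocampus, and 8.61 after ethanol and 8.69 after PBS in forebrain. Here the hippocampus ethanol array was the highest, by 18.7% over the hippocampus PBS array. Cox7b, a subunit of complex IV, read 10.10 after ethanol and 9.88 after PBS in hippocampus, and 10.04 after ethanol and 9.88 after PBS in forebrain, so that both ethanol arrays lay above both PBS arrays. The second, dimmer probe set of Cox7b differed by 0.02 in hippocampus and -0.02 in forebrain.

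Promoters of these 4 genes are shown because their values were just described, so that their start regions can be set side by side. Ndufa5 and Cox8a were lowest and Ndufa12 highest in hippocampus after ethanol, and Cox7b was higher in both tissues by its brighter probe set only. Each window runs 5′ to 3′ from 250 bases before to 50 after the start in RefSeq, in lower case, with capitals for matches on either strand to any of 4 short motifs. The first is the palindromic core of the NRF1 motif. For the factor GABP the letters searched were CCGGAAG. For the factor YY1 the letters searched were ATGGCG, which can also be a start codon with its next codon. For the TATA box the letters searched were TATAAA. For Ndufa5 the first of 2 listed windows is given.
Cox8a, GRCm38.p6 chr19:7217567-7217866, minus strand: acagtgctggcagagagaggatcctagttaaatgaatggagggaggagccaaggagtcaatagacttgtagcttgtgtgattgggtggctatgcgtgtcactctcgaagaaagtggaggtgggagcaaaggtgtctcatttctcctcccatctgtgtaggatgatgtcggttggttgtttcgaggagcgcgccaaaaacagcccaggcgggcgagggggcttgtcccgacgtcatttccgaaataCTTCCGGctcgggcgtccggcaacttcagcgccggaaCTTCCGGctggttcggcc
Ndufa5, GRCm38.p6 chr6:24527477-24527776, minus strand: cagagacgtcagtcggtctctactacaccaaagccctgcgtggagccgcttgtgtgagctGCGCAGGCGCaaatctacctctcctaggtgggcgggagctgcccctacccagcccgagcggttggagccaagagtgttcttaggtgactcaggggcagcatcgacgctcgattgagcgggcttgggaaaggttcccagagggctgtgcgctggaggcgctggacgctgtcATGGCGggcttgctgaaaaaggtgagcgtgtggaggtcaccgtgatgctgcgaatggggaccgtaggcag
Ndufa12, GRCm38.p6 chr10:94198785-94199084, plus strand: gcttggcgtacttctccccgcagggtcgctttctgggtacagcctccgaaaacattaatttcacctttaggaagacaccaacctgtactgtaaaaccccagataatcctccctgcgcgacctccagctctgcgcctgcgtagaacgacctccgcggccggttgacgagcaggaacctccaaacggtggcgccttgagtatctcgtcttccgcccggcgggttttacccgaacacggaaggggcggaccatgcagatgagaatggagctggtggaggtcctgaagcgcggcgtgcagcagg
Cox7b, GRCm38.p6 chrX:106015450-106015749, plus strand: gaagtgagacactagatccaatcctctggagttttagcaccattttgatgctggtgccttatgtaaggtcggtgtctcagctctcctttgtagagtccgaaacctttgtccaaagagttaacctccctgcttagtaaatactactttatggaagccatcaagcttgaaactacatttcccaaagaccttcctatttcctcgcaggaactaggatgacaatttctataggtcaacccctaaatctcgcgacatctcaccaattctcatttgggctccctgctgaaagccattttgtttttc
The Cox8a window holds 2 GABP matches, the Ndufa5 window holds an NRF1 and a YY1 match, and no capitals stand in the Ndufa12 and Cox7b windows, which says only that these letters are not in them.

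NRF1, GABP and YY1 are transcription factors known for driving nuclear genes of mitochondria, which is why their motifs were counted. RefSeq windows were found for 67 of the 83 genes, 72 windows in all. The NRF1 core was in 23.6% of these windows and in 10.4% of the windows of kept genes, 6.4% of those of protein-coding genes and 4.6% of all. The GABP core was in 23.6%, beside 17.0%, 11.6% and 8.9% in the same 3 sets, and the YY1 core in 27.8%, beside 15.1%, 10.9% and 8.9%. The TATA box was in 12.5%, beside 6.6%, 12.6% and 13.6%. Median GC content was 57.5% for the respiratory chain and 61.7% for kept genes. Matches to different motifs may overlap, and a match is a description of the letters only. In hippocampus the median ethanol difference was -0.04 for 16 kept genes with the NRF1 core and -0.05 for 47 without, and for the GABP core it was -0.05 for 17 with it and -0.04 for 46 without. For the YY1 core it was -0.06 for 17 with it and -0.02 for 46 without, and for the TATA box -0.10 for 6 with it and -0.04 for 57 without.

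Complex I accepts electrons from NADH. Its 34 kept genes had a hippocampus median of -0.05 (0.05 with arrays centred), with 14 higher and 20 lower, and in forebrain 23 were higher and 11 lower (median 0.02). The 6 core subunits measured, which carry the flavin and iron-sulphur centres or hold the quinone site, were split evenly in hippocampus, 3 higher and 3 lower (median 0.03). Ndufs8, an iron-sulphur protein, read 8.99 after ethanol and 8.75 after PBS in hippocampus, and 8.92 after ethanol and 9.01 after PBS in forebrain. The hippocampus PBS array was the lowest of the 4 here, and the hippocampus ethanol array lay between the forebrain arrays. Ndufs1, the largest core subunit, read 10.16 after ethanol and 9.96 after PBS in hippocampus, and 10.15 after ethanol and 10.08 after PBS in forebrain, which put both ethanol arrays above both PBS arrays. Ndufv1, which binds NADH and the flavin, read 9.59 after ethanol and 9.69 after PBS in hippocampus, and 9.64 after ethanol and 9.67 after PBS in forebrain, the opposite order in each tissue. 

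The 28 accessory subunits of complex I had 11 higher and 17 lower in hippocampus (median -0.05), and 19 higher and 9 lower in forebrain (median 0.02). Ndufb3, in the membrane arm, read 7.44 after ethanol and 7.74 after PBS in hippocampus, and 7.71 after ethanol and 7.70 after PBS in forebrain. Ndufa2, in the NADH-binding part, read 8.28 after ethanol and 8.54 after PBS in hippocampus, and 8.49 after ethanol and 8.57 after PBS in forebrain. In both genes the hippocampus ethanol array was the lowest. Ndufa1, a membrane subunit encoded on the X chromosome, read 7.69 after ethanol and 7.92 after PBS in hippocampus, and 8.16 after ethanol and 8.02 after PBS in forebrain. The hippocampus difference was -0.24 and the forebrain difference 0.14, opposite in sign, a contrast of -0.38 that 1 array per group cannot test. Ndufv3, an accessory subunit beside the flavoprotein, had the lowest forebrain difference of the complex, reading 8.03 after ethanol and 8.17 after PBS there, and 8.11 after ethanol and 8.04 after PBS in hippocampus. Ndufa11, a membrane subunit, differed by 0.23 in hippocampus and 0.01 in forebrain, but its second probe set gave 0.04 and -0.05. Ndufa4, named as a complex I subunit and now assigned to complex IV, read 10.92 after ethanol and 10.90 after PBS in hippocampus, and 11.01 after ethanol and 10.93 after PBS in forebrain.

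Complex II, succinate dehydrogenase, is also an enzyme of the citrate cycle and is wholly encoded in the nucleus. Its 4 genes were all lower after ethanol in both tissues, by small amounts, with medians of -0.05 in hippocampus (0.05 with arrays centred) and -0.06 in forebrain. Below 0 in both tissues lay 42.3% of all kept genes. Sdha, the flavoprotein that oxidizes succinate, read 10.67 after ethanol and 10.72 after PBS in hippocampus, and 10.66 after ethanol and 10.71 after PBS in forebrain. Sdhb, the iron-sulphur subunit, read 8.52 after ethanol and 8.56 after PBS in hippocampus, and 8.51 after ethanol and 8.60 after PBS in forebrain. Both catalytic genes thus had their ethanol arrays below their PBS arrays, but with arrays centred the hippocampus difference was 0.05 for Sdha and 0.07 for Sdhb. The membrane anchors differed by -0.13 and -0.06 for Sdhc and by -0.05 and -0.06 for Sdhd, in hippocampus and forebrain in that order. For the anchors the hippocampus arrays lay below the forebrain arrays, whichever treatment was given.

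Complex III passes electrons from ubiquinol to cytochrome c. Among its 9 genes, 4 were higher and 5 lower in each tissue, with medians of -0.02 in hippocampus (0.08 with arrays centred) and -0.06 in forebrain. Uqcrb, a small subunit near the quinone site, read 10.63 after ethanol and 10.48 after PBS in hippocampus, and 10.63 after ethanol and 10.46 after PBS in forebrain. All 3 of its probe sets were higher after ethanol in both tissues, by 0.15 to 0.20 in hippocampus and 0.11 to 0.19 in forebrain. In contrast, Uqcrfs1, the Rieske iron-sulphur protein, read 8.43 after ethanol and 8.48 after PBS in hippocampus, and 8.38 after ethanol and 8.52 after PBS in forebrain. Cyc1, cytochrome c1, read 9.94 after ethanol and 10.12 after PBS in hippocampus, and 10.25 after ethanol and 10.19 after PBS in forebrain, its hippocampus ethanol array being the lowest of the 4. Uqcrc1, a matrix-facing core protein, differed by 0.10 in hippocampus and 0.02 in forebrain, and Uqcrq, a small subunit, by -0.13 and -0.06. Uqcr11, the smallest subunit, had the lowest forebrain difference of all 76 genes, at -0.17, and 0.01 in hippocampus, while its second probe set gave -0.06 in forebrain and -0.21 in hippocampus. The mobile carrier gene Cycs read 9.87 after ethanol and 9.93 after PBS in hippocampus, and 9.95 after ethanol and 9.84 after PBS in forebrain, and its 3 probe sets gave hippocampus differences of -0.46, -0.07 and 0.04.

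**Figure D2:**
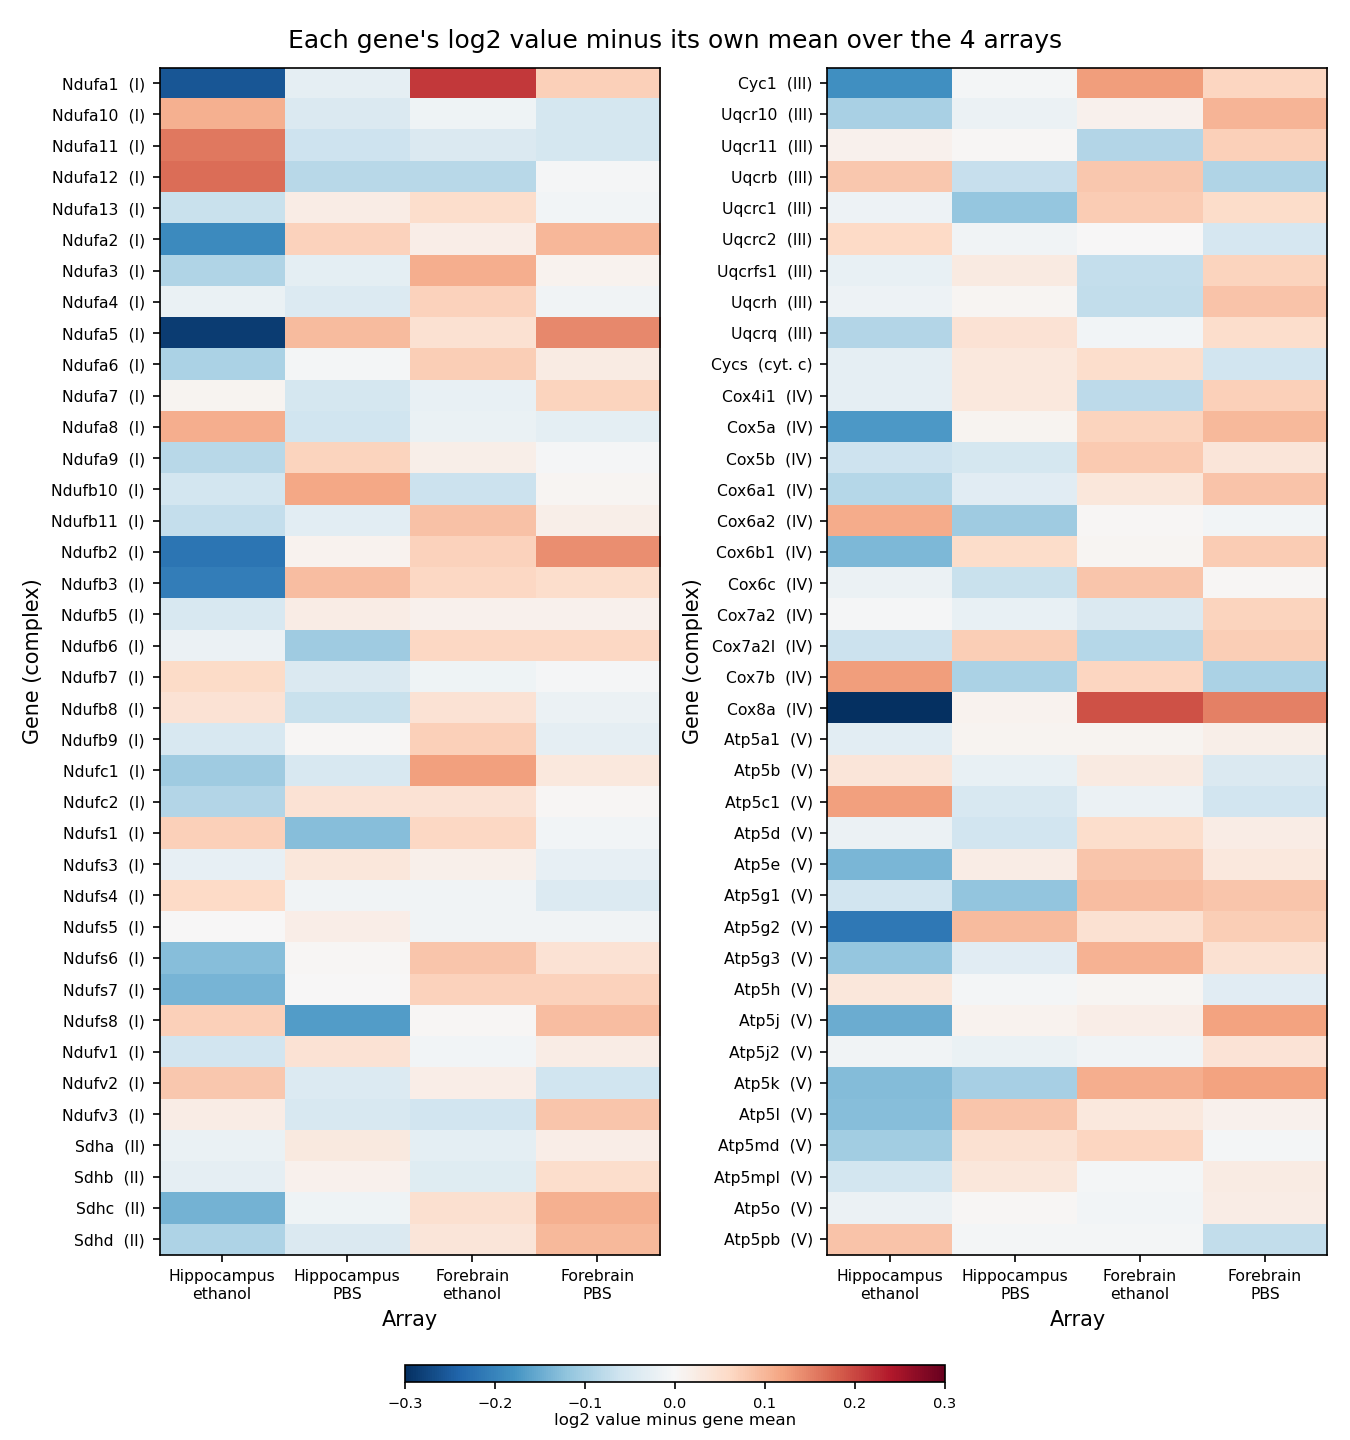
Each of the 76 kept genes (rows, with the complex in brackets) in the 4 arrays (columns), as the log2 value minus the mean of that gene over the 4 arrays; red is above and blue below the gene's mean. The hippocampus ethanol column holds the darkest blue cells, at Cox8a and Ndufa5, beside red cells such as Ndufa12, and it was the lowest of the 4 arrays for 37 genes.

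Complex IV, cytochrome c oxidase, reduces oxygen. Its nuclear subunits surround the catalytic core encoded in mitochondrial DNA. The 11 kept genes had medians of -0.06 in hippocampus (0.04 with arrays centred), with 4 higher and 7 lower, and -0.03 in forebrain, with 5 higher and 6 lower. Cox4i1, the ubiquitous isoform of subunit IV, read 9.87 after ethanol and 9.93 after PBS in hippocampus, and 9.82 after ethanol and 9.97 after PBS in forebrain. Cox7a2l read 9.50 after ethanol and 9.64 after PBS in hippocampus, and 9.48 after ethanol and 9.64 after PBS in forebrain. Both genes had their ethanol arrays below their PBS arrays in each tissue (Cox4i1 at 0.04 in hippocampus with arrays centred), as did Cox6b1, a subunit facing the intermembrane space, at -0.19 and -0.07. For Cox7a2l the second probe set gave -0.16 in hippocampus but -0.01 in forebrain, and for Cox7b the second probe set gave 0.02 and -0.02 where the brighter gave 0.21 and 0.16. Of the remaining ubiquitous subunits named here, Cox5a differed by -0.17 and -0.03, Cox6a1 by -0.06 and -0.05 and Cox7a2 by 0.02 and -0.11.

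Several complex IV subunits have a second isoform known from heart, muscle, lung or testis. Of these only Cox6a2, the heart and muscle isoform of subunit VIa, was kept; it read 7.68 after ethanol and 7.46 after PBS in hippocampus, and 7.57 after ethanol and 7.56 after PBS in forebrain. Cox7b2, a testis isoform, read 4.33 after ethanol and 4.41 after PBS in hippocampus, and 4.43 after ethanol and 4.20 after PBS in forebrain. The muscle isoform genes below the filter gave hippocampus differences of 0.26 for Cox7a1 and 0.29 for Cox8b, the hypoxia-responsive lung isoform Cox4i2 gave 0.18 and the testis isoform Cox8c gave 0.13. In contrast, the testis isoform Cox6b2 gave -0.20, and Ndufa4l2, a hypoxia-induced relative of Ndufa4, gave -0.03. In forebrain these 6 genes other than Cox7b2 ran from -0.06 to 0.11. Beside them, all 3991 genes with means from 6 up to that filter had a median of 0.09 in hippocampus and 0.01 in forebrain, so dim probe sets in general read higher in the hippocampus ethanol array. Muscle marker genes were below the filter too, 0 of 4 being kept. Tnnt2, for example, read 7.13 after ethanol and 6.92 after PBS in hippocampus, and 6.82 after ethanol and 6.83 after PBS in forebrain. The lowest and highest of the 4 muscle markers were 6.08 and 7.21 in hippocampus after ethanol, 5.90 and 7.17 in hippocampus after PBS, 5.91 and 7.04 in forebrain after ethanol and 5.83 and 6.97 in forebrain after PBS.

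**Figure D3:**
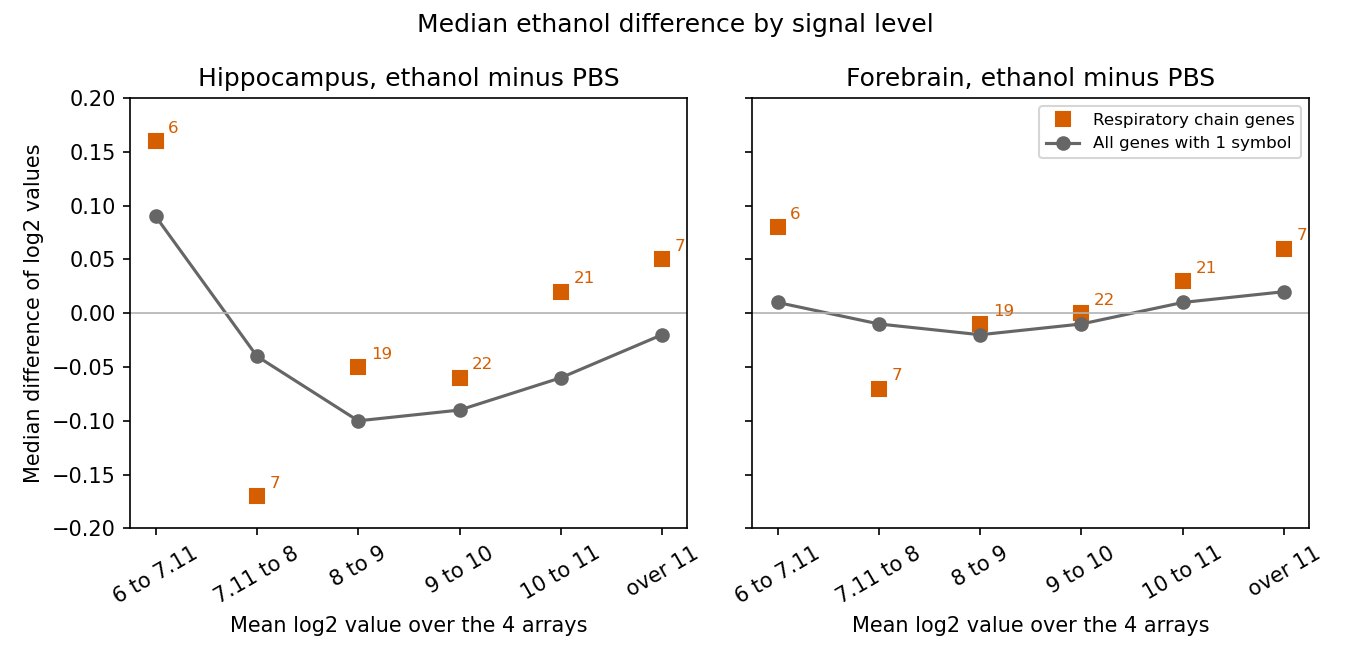
Median ethanol difference by signal level, for respiratory chain genes (orange squares, with the number of genes beside each) and for all genes with 1 symbol (grey circles joined by a line), in hippocampus (left) and forebrain (right). The x axis is the mean log2 value over the 4 arrays and the y axis the median ethanol minus PBS difference; in hippocampus the grey line runs from 0.09 for dim genes to -0.10 at 8 to 9 and -0.02 above 11.

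Complex V has a catalytic head, a stalk and a membrane rotor. All 17 of its genes were kept, with medians of -0.03 in hippocampus (7 higher, 10 lower; 0.07 with arrays centred) and 0.02 in forebrain (10 higher, 7 lower). The 5 genes of the catalytic head and central stalk ran from -0.16 for Atp5e to 0.16 for Atp5c1 in hippocampus. In forebrain they ran from -0.01 to 0.07. Atp5b, the catalytic beta subunit, read 12.20 after ethanol and 12.14 after PBS in hippocampus, and 12.19 after ethanol and 12.12 after PBS in forebrain. With arrays centred its hippocampus difference was 0.17. Atp5a1, the alpha subunit, read 11.75 after ethanol and 11.79 after PBS in hippocampus, and 11.79 after ethanol and 11.80 after PBS in forebrain. Atp5c1, the gamma subunit of the central stalk, differed by 0.16 in hippocampus and 0.03 in forebrain. The 3 genes Atp5g1, Atp5g2 and Atp5g3 encode the same mature ring subunit with different leader peptides, and they did not move together. Atp5g2 read 10 after ethanol and 10.31 after PBS in hippocampus, and 10.26 after ethanol and 10.29 after PBS in forebrain, and all 3 of its probe sets gave -0.30 to -0.28 in hippocampus. Atp5g1 differed by 0.07 and 0.01, and Atp5g3 by -0.09 and 0.06. In the peripheral stalk Atp5j, subunit F6, differed by -0.16 and -0.10, while Atp5pb, subunit b, differed by 0.08 and 0.07 with a second probe set at -0.09 and -0.17. Atp5l, subunit g at the membrane, was lower in hippocampus by all 6 of its probe sets, from -0.23 to -0.09. Its brightest probe set stood at -0.21 there, and at -0.11 with arrays centred. Below 0 in hippocampus lay 69.3% of all kept genes. Atpif1, the inhibitor of the ATP synthase and no member by symbol, differed by 0.00 in each tissue.

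Set across arrays as deviations from each gene's own mean, each complex had its lowest median in hippocampus after ethanol, as did all kept genes. For complex III the margin was small, at -0.02 in that array and -0.01 in hippocampus after PBS. The same array had the lowest median over kept genes, 8.57 beside 8.66 to 8.68 in the others. With arrays centred, the hippocampus median ethanol difference of each complex was above 0. Relative to each gene's own mean, the median deviation in hippocampus after ethanol was -0.04 for complex I, -0.06 for II, -0.02 for III, -0.06 for IV and -0.05 for V, and it was -0.05 over all kept genes. In forebrain after PBS it was 0.01 for complex I, 0.07 for II, 0.07 for III, 0.07 for IV and 0.02 for V, beside 0.02 over all kept genes. The hippocampus ethanol array was the lowest of the 4 for 37 of 76 genes, or 48.7%, and for 50.2% of all kept genes. These shares lay close together.

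**Figure D4:**
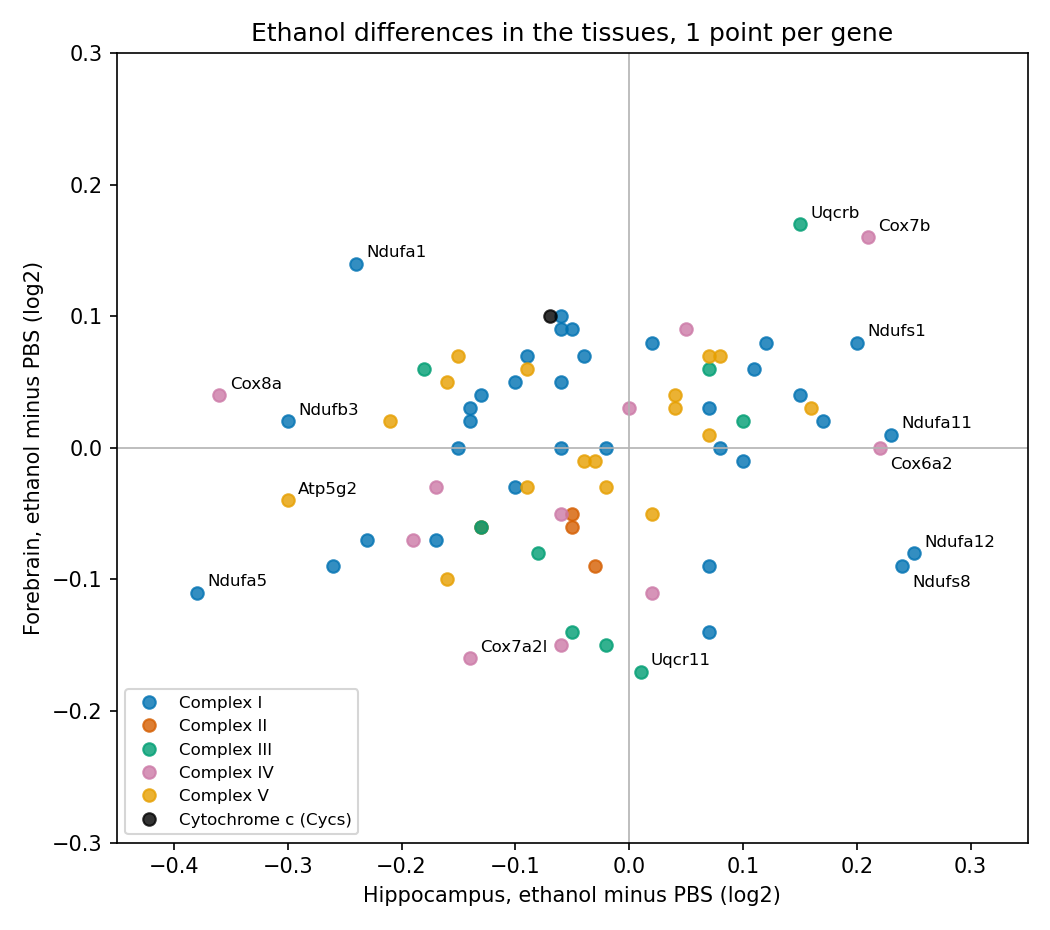
Hippocampus (x axis) against forebrain (y axis) ethanol minus PBS differences on the log2 scale, 1 point per kept gene, coloured by complex, with outlying genes named. Grey lines mark 0; Uqcrb and Cox7b lie at the upper right, Ndufa5 at the lower left and Ndufa1 at the upper left, with opposite signs in the tissues.

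Between the tissues, the ethanol differences had the same sign in 46 of 76 genes, or 60.5%, and in 61.4% of all kept genes. Above 0 in both tissues were 21 genes (19.1% of all kept genes), and below 0 in both were 25 (42.3% of all). For 14 genes both ethanol arrays lay above both PBS arrays, which held for 8.66% of all kept genes, among them Atp5b, Ndufs1, Uqcrb and Cox7b. For 16 genes both ethanol arrays lay below both PBS arrays, which held for 28.9% of all, among them Sdha, Sdhb, Cox4i1 and Uqcrfs1. The median of the hippocampus difference minus the forebrain difference was -0.09 for complex I, 0.01 for II, 0.02 for III, -0.01 for IV and -0.02 for V, with -0.06 over all kept genes. Whether hippocampus and forebrain were taken from the same fetuses is not stated, so the tissues may not be independent.

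In the additive limma model of treatment and tissue, adjusted over 11013 genes by Benjamini-Hochberg, 0 of 76 respiratory chain genes passed an adjusted p of 0.05, as did 0 of all kept genes. The lowest adjusted p among the subunits was 0.51 by limma. At an unadjusted p of 0.05, limma gave 4 genes, or 5.26%, where 9.76% of all kept genes passed. The 4 were Cox7b at 0.19 (SE 0.063), Uqcrb at 0.16 (SE 0.055), Ndufa5 at -0.24 (SE 0.089) and Atp5j at -0.13 (SE 0.05). Each had the same sign in both tissues, which the fit favours, since its error is the difference between the tissues. The Cox7b value is that of its brighter probe set, while the second differed by 0.02 in hippocampus and -0.02 in forebrain. The count of 4 became 10 with arrays centred, 7 after quantile normalization and 2 without a trend. Matching shares of all kept genes under those settings were not counted. Standard errors of the ethanol coefficients ran from 0.036 to 0.106. Over all 76 genes the 95% intervals reached down to -0.45, for Ndufa5, and up to 0.33, for Cox6a2, so that no interval reached 1.5-fold. The fit has 1 residual degree of freedom per gene, with the tissue difference in response as its error, and the intervals cover the spread between these arrays only.

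The tissue comparison asked which subunits differed between hippocampus and forebrain over both treatments. As deposited, most read lower in hippocampus, but the median of hippocampus minus forebrain turned above 0, to 0.01, with arrays centred. After quantile normalization it was -0.02. The limma tissue coefficient, hippocampus minus forebrain, was below 0 for 54 of 76 genes, or 71.1%, beside 61.2% of all kept genes, with a median of -0.04 beside -0.03. For 27 genes both hippocampus arrays lay below both forebrain arrays (28.9% of all kept genes), and for 2 genes, Atp5pb and Ndufs5, they lay above (13.4% of all). Cox8a had the widest coefficient at -0.34 (SE 0.1, 95% interval -0.57 to -0.10, limma adjusted p = 0.177). Next came Ndufa1 at -0.29 (limma adjusted p = 0.265) and Atp5k, the e subunit at the membrane of complex V, at -0.23 (limma adjusted p = 0.222). Atp5k read 8.50 after ethanol and 8.53 after PBS in hippocampus, and 8.74 after ethanol and 8.75 after PBS in forebrain, close between treatments and apart between tissues. All 3 ring genes of complex V were lower in hippocampus, with a median of -0.15. The highest coefficients were 0.09 for Ndufa11, 0.09 for Ndufa12 and 0.08 for Atp5pb. By limma 0 of 76 genes passed an adjusted p of 0.05, beside 1.13% of all kept genes, and 8, or 10.5%, passed an unadjusted p of 0.05, beside 15.1% of all. The unadjusted count of 8 became 5 with arrays centred, 15 after quantile normalization and 5 without a trend. After quantile normalization Cox8a alone was called, at an adjusted p of 0.048 by limma.

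Genes around the chain gave a mixed picture. Over all kept genes 69.3% were below 0 in hippocampus and 53.8% in forebrain, with medians of -0.08 and -0.01. Assembly factors, which build the complexes, were lower in hippocampus after ethanol for 34 of 40 kept genes (median -0.12), and in forebrain 25 of 40 were higher (median 0.03), where 46.1% of all kept genes were. Among them, Coa7, an assembly factor of complex IV, differed by -0.41 and -0.05, Ndufaf2, of complex I, by -0.32 and -0.27, Uqcc2, of complex III, by 0.15 and 0.18, and Coa4 by 0.12 and 0.13, in hippocampus and forebrain in that order. The citrate cycle, which supplies the electrons, had 8 higher and 5 lower of 13 kept genes in hippocampus (median 0.04) and 7 higher and 6 lower in forebrain (median 0.03). Its citrate synthase gene Cs differed by 0.07 and 0.12, the malate dehydrogenase gene Mdh2 by 0.07 and -0.01, Suclg1, of succinyl-CoA ligase, by -0.16 and -0.10 and the isocitrate dehydrogenase gene Idh2 by -0.15 and -0.03. The mitochondrial ribosome, which translates the subunits encoded in mitochondrial DNA, had 57 of 76 kept genes lower in hippocampus (median -0.09) and 43 lower in forebrain (median -0.01), with medians near those of all kept genes, from Mrpl33 at -0.35 and Mrpl36 at -0.33 to Mrpl40 at 0.25 and Mrps34 at 0.27 in hippocampus. Cytosolic ribosomal genes had medians of -0.01 and -0.02, with Rps9 and Rps29 at -0.28 and Rps4l and Rps19 at 0.22 and 0.19 in hippocampus. No mitochondrial DNA gene was analysed here.

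The list of regulators of mitochondrial genes had 14 kept genes, among them Polg and Twnk, which serve replication of mitochondrial DNA rather than transcription. In hippocampus 12 of the 14 were lower (median -0.15), where 69.3% of all kept genes were. In forebrain 11 were lower (median -0.07), where 53.8% were. Lower in both tissues were 11, Polg and Twnk included, beside 42.3% of all kept genes. Of these, Polrmt in hippocampus and Tfb2m in forebrain stood at -0.0. Gabpa, the DNA-binding subunit of GABP, read 8.92 after ethanol and 9.24 after PBS in hippocampus, and 9.08 after ethanol and 9.17 after PBS in forebrain. Tfb2m, a mitochondrial transcription factor, differed by -0.27 in hippocampus, and Nrf1, the factor whose motif was counted above, by -0.22 and -0.03. Ppargc1a, the coactivator that drives mitochondrial biogenesis, read 7.70 after ethanol and 7.34 after PBS in hippocampus, and 7.95 after ethanol and 7.72 after PBS in forebrain. Both Ppargc1a and the orphan receptor gene Esrrg, at 0.25 and 0.04, were higher after ethanol in both tissues. By limma 0 of the 14 passed an adjusted p of 0.05 for ethanol. An unadjusted p of 0.05 was passed by 2 of them, where 9.76% of all kept genes passed. That limma count was 5 of 14 kept genes for glycolysis, 2 of 40 for assembly factors and 0 of 13 for the citrate cycle. It was 4 of 76 for the mitochondrial ribosome and 5 of 59 for the cytosolic ribosome. Glycolysis genes had 6 higher and 8 lower of 14 in hippocampus (median -0.03) and 11 higher and 3 lower in forebrain (median 0.04); the neuronal enolase gene Eno2 differed by 0.37 and 0.12, the aldolase genes Aldoa and Aldoc by 0.29 and -0.15 in hippocampus, and the hexokinase gene Hk2 by -0.43 and -0.16. The hippocampus medians of the assembly factors and regulators stayed below 0 with arrays centred, at -0.02 and -0.05, whereas that of the mitochondrial ribosome was then 0.01.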

How the data were processed

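The deposited values are log2 expression values of 4 Affymetrix mouse gene arrays, made by the authors; the scale was read from the values (1.58 to 13.96). Per the submitters' processing notes MAS5 was used; version and normalization: not given in the sources used here. Per the labels, biotinylated cRNA was made from 6 ug of total RNA. Of 35557 probe sets, 21789 had 1 gene symbol, and 1621 had several and were not named. Arrays within a tissue were compared by untested differences. For treatment and tissue together, limma 3.58.1 (R 4.3.3) fitted additive terms, with a trend in eBayes and Benjamini-Hochberg adjustment; it was tested on simulated data. Other steps used pandas 2.3.3, numpy 2.4.6 and matplotlib 3.10.9 in Python 3.11.15. Alternatives were 2 scalings, 2 filters, another rule for probe sets, 2 fold thresholds and limma without a trend. Genes named were, in each complex, the 2 highest and 2 lowest hippocampus and the highest and lowest forebrain differences, the 3 highest and 3 lowest limma coefficients, fixed core and isoform genes, and the 2 highest and 2 lowest of each related list. Nrf1 and second probe sets were chosen after their values were seen. A part of the rule on genes of like pattern named none, since 4 arrays do not tell such a pattern from scaling. Members and lists were chosen with earlier results of these data known.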

Additional observations from a re-analysis of the deposited data

Results flagged for a closer look

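Complex I had a median ethanol difference of -0.05 in hippocampus and 0.02 in forebrain, opposite in direction, and the median over its genes of the hippocampus difference minus the forebrain difference was -0.09. Complex V had medians of -0.03 and 0.02, with a median contrast of -0.02. Ndufa1 differed by -0.24 in hippocampus and 0.14 in forebrain, a contrast of -0.38. It was flagged for opposite differences of at least 0.1 in each tissue, a size chosen after the values were seen. How many of all kept genes meet that size was not counted. At any size, 22 of 76 subunits were lower in hippocampus and higher in forebrain, beside 2971 of 11013 kept genes. With arrays centred the hippocampus medians were 0.05 for complex I and 0.07 for complex V, no longer opposite to forebrain. These contrasts between tissues were not tested, since each group has 1 array.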

How the results depend on the processing

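Counts of ethanol calls by limma stayed at 0 of the respiratory chain genes under all 6 alternatives run. For tissue, quantile normalization called 1 gene, Cox8a, and the other 5 alternatives called 0. Over all genes limma made 0 ethanol calls, against 2 with centring, 14 after quantile normalization and 7 with the 75th percentile filter. For tissue it made 124 calls, against 66 with centring, 416 after quantile normalization, 37 without a filter and 27 without a trend. With the lower threshold (the higher array 25% above the lower) 2 genes were lower in hippocampus. Centring arrays raised hippocampus differences by about the offset of that ethanol array. The median of all kept genes was then 0.02 in place of -0.08, and the medians turned to 0.05 for all subunits, 0.05 for complex I, 0.05 for II, 0.08 for III, 0.04 for IV and 0.07 for V. The contrast between tissues turned to 0.06. The related lists then gave 0.01 for the mitochondrial ribosome in each tissue, 0.09 for the cytosolic ribosome, 0.07 for glycolysis, 0.14 for the citrate cycle, -0.02 for assembly factors and -0.05 for regulators, in hippocampus unless stated. Quantile normalization gave hippocampus medians of 0.01 for all subunits, 0.01 for complex I, 0.03 for III, 0.00 for IV, -0.05 for assembly factors, -0.06 for regulators and -0.02 for the mitochondrial ribosome, and -0.02 for the citrate cycle in forebrain. With the 75th percentile filter complex III stood at 0.07 in hippocampus and 0.06 in forebrain and regulators at -0.23 in hippocampus, with fewer genes tested; without a filter complex IV stood at 0.03 in forebrain, with more. Of named subunits, centring turned the hippocampus sign of Atp5a1 (0.06), Atp5g3 (0.01), Atp5k (0.07), Cox4i1 (0.04), Cox6a1 (0.04), Cycs (0.03), Sdha (0.05), Sdhb (0.07), Sdhd (0.05) and Uqcrfs1 (0.05), and in forebrain that of Atp5a1 (0.01) and Atp5k (0.01). Quantile normalization turned it in hippocampus for Atp5k (0.05), Cox6a1 (0.02), Ndufa4 (-0.04), Sdhb (0.05), Sdhd (0.02) and Uqcrfs1 (0.04). Averaging probe sets turned Atp5pb (-0.05) and Ndufa11 (-0.02) in forebrain and Uqcr11 (-0.10) in hippocampus. The subunits' median tissue coefficient was 0.01 with centring, in place of -0.04. Moving Ndufa4 to complex IV, chosen after seeing the data, kept the medians of complexes I and IV within 0.056, the typical spread between arrays. Apart from the scaling, the cause was not tested. No paired analysis was possible because the labels number no replicates, and leaving out an array would leave limma no residual degree of freedom. The number of arrays limits the precision.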
